A study of Mus musculus with 24 samples.

Results

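The let-7 family with miR-98 comprised 9 mature miRNAs of the 1915 in the deposited mature table, namely mmu-let-7a-5p, mmu-let-7b-5p, mmu-let-7c-5p, mmu-let-7d-5p, mmu-let-7e-5p, mmu-let-7f-5p, mmu-let-7g-5p, mmu-let-7i-5p and mmu-miR-98-5p. They were chosen by name and are written below without the species prefix and arm. The precursor table contributed 14 of its 1186 hairpins, which were all hairpins named let-7 together with mir-98. Both tables were read in all of their 12 columns.

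MicroRNAs are short RNAs cut from hairpin precursors, and each guides repression of mRNAs that pair with its seed, bases 2 to 8 from its 5′ end. The let-7 miRNAs and miR-98 share one seed and therefore a large set of targets. They are known for accumulating as tissues differentiate, where they repress growth regulators such as Lin28, Hmga2 and Myc, while LIN28 in turn blocks the processing of let-7 precursors. Most adult tissues, liver included, hold several members at once.

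Small RNA was sequenced from mouse liver, primary hepatocytes in culture, exosomes from the culture medium of the hepatocytes and exosomes from serum. Each of these 4 materials was taken untreated, with acetaminophen, a drug that injures hepatocytes at high dose, and with acetaminophen plus the granulocyte growth factor G-CSF. Liver and serum exosomes came from mice given 500 mg/kg acetaminophen, with 100 µg/kg G-CSF where it was added. Hepatocytes and hepatocyte exosomes came from cultures given 20 mM acetaminophen, with 1 µg/ml G-CSF where it was added. The controls were untreated, and the sources used here do not give the strain, sex or age of the mice, the time after treatment or the number of mice or cultures. The 24 samples were 12 conditions, each run on an Ion Torrent PGM and on an Ion Torrent Proton, and each deposited column combines both runs. There are therefore no replicates, a comparison of 2 columns compares those libraries only, and every interval below covers counting error alone.

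Before any value is given, 3 properties of the columns need stating. In the serum exosomes, the titles of the treated samples assign G-CSF the opposite way from their treatment labels, and the treatment labels are followed here. Column totals in the mature table ran from 4450 to 49330 counts in hepatocytes and liver, and were 6515 in control serum exosomes, 436 and 692 in treated serum exosomes and 47 to 335 in hepatocyte exosomes. The hepatocyte marker miR-122-5p was present at 443 to 11657 counts in each column of hepatocytes and liver, and at 0 or 1 count in hepatocyte exosomes.

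The mature sequences are shown because their likeness sets how far the members can be told apart. They are from RefSeq on GRCm38.p6, written 5′ to 3′, with the seed in capitals.

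mmu-let-7a-5p: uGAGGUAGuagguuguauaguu

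mmu-let-7b-5p: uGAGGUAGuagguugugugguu

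mmu-let-7c-5p: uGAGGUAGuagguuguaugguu

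mmu-let-7d-5p: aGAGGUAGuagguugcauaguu

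mmu-let-7e-5p: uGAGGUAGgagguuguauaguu

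mmu-let-7f-5p: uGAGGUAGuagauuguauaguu

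mmu-let-7g-5p: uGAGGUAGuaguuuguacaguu

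mmu-let-7i-5p: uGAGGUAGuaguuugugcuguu

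mmu-miR-98-5p: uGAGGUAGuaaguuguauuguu

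All 9 are 22 bases long and carry the seed GAGGUAG. Counted from the 5′ end and relative to let-7a, let-7c differs by A19G, let-7e by U9G and let-7f by G12A. let-7b differs by A17G and A19G, let-7d by U1A and U16C, let-7g by G12U and U18C, and miR-98 by G11A and A19U. let-7i differs by G12U, A17G, U18C and A19U. Of the 1623 mature rows with a RefSeq sequence, 11 carry this seed. The 2 that are not members, let-7k and miR-1961, were at 0 counts in all 12 columns.

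On GRCm38 the family is spread over several loci. The hairpins let-7a-1 (chr13:48538179-48538272), let-7f-1 (chr13:48537829-48537917) and let-7d (chr13:48536012-48536114) lie on the minus strand within exons of the lincRNA 6720427I07Rik. let-7c-2 (chr15:85706603-85706697) and let-7b (chr15:85707319-85707403) lie on the plus strand within exons of the noncoding transcript Lncppara. let-7f-2 (chrX:151912346-151912428) and mir-98 (chrX:151913214-151913321) are both intronic in Huwe1, which encodes a ubiquitin ligase. let-7a-2 (chr9:41536716-41536811) is intronic in the noncoding 3110039I08Rik, let-7c-1 (chr16:77599657-77599750) in Mir99ahg, let-7e (chr17:17830352-17830444) in Spaca6 and let-7g (chr9:106178840-106178927) in Wdr82. let-7i (chr10:122985640-122985724) overlaps an exon of the transcribed pseudogene D630033A02Rik. The remaining 2 hairpins, let-7j on chromosome 3 and let-7k on chromosome 5, are outside annotated host genes.

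The deposited values are fractional, in the manner of reads that match several miRNAs and are divided among them. let-7a and let-7c, which differ at 1 base, had almost equal counts in each of the 5 columns with at least 100 family counts, with ratios between 1 and 1.027. let-7g and let-7i differ at 2 bases and had ratios between 1.007 and 1.065 in the same columns. Those pairs thus carry 1 measurement each and not 2. For 1 mismatch in general the equality did not hold: over the 4 pairs of members 1 base apart, the median ratio over the 5 columns ran from 1.008 to 2.901.

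The hairpin table separated some of these loci and not others. The ratio of let-7c-1 to let-7c-2 was between 0.933 and 1.02 in all 7 columns of hepatocytes, liver and control serum exosomes, and every counting interval included equality. The same held for let-7f-1 against let-7f-2 and for let-7g against let-7i. Counts of called hairpins below include both hairpins of each such pair, which are not independent measurements. The hairpins let-7a-1 and let-7a-2 did differ, by 1.12-fold in control liver (95% interval 1.1 to 1.14) up to 1.47-fold in hepatocytes with acetaminophen plus G-CSF (1.17 to 1.88), with let-7a-1 higher in all 7. The hairpins of let-7g and let-7i are printed for comparison with the mature part in capitals, since their letters differ well beyond it while their counts do not.

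let-7g hairpin: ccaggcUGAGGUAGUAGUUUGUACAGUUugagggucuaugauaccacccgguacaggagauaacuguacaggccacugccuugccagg

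let-7i hairpin: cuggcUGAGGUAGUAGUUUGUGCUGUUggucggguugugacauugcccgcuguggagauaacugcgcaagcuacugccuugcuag

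In hepatocytes, liver and control serum exosomes the hairpin table held 25.08 to 33.72 times as many counts as the mature table, except in acetaminophen liver, where it held 5.652 times as many. Members departed from this. The let-7a hairpins together held 53.6 times the counts of mature let-7a in control hepatocytes and 55.3 times in control liver. The mir-98 hairpin held only 1.11 times the counts of mature miR-98 in control hepatocytes, 1.47 times in control liver and 0.851 times in liver with acetaminophen plus G-CSF. In acetaminophen liver the mature miR-98 row had 68.7 counts and its hairpin 21.03, and the mature let-7e row had 94.73 counts and its hairpin 56.27. A mature row cannot exceed its only hairpin when the same reads are counted the same way in both tables. The mature values of miR-98 and let-7e are the least certain of the family and are set beside hairpin values below.

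The family was far more abundant in liver than in cultured hepatocytes. It took 10.33% of the mature counts in control liver (5094.4 counts, 95% Wilson interval 10.06 to 10.6%) and 2.969% in control hepatocytes (794 counts, 2.772 to 3.18%). With acetaminophen the shares were 6.292% in liver (1239.2 counts, 5.96 to 6.639%) and 0.8443% in hepatocytes (45 counts, 0.6316 to 1.128%). With acetaminophen plus G-CSF they were 19.5% in liver (8519.7 counts, 19.13 to 19.87%) and 0.9663% in hepatocytes (43 counts, 0.7182 to 1.299%). The lowest liver column thus stood above the highest hepatocyte column. In the hairpin table the shares in the same order of treatments were 12.13%, 8.537% and 19.11% in liver and 2.726%, 1.173% and 0.8226% in hepatocytes. These are shares of a column, so they move with every other abundant miRNA in it, and fewer cells of a type cannot be told apart from less RNA per cell.

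**Figure D1:**
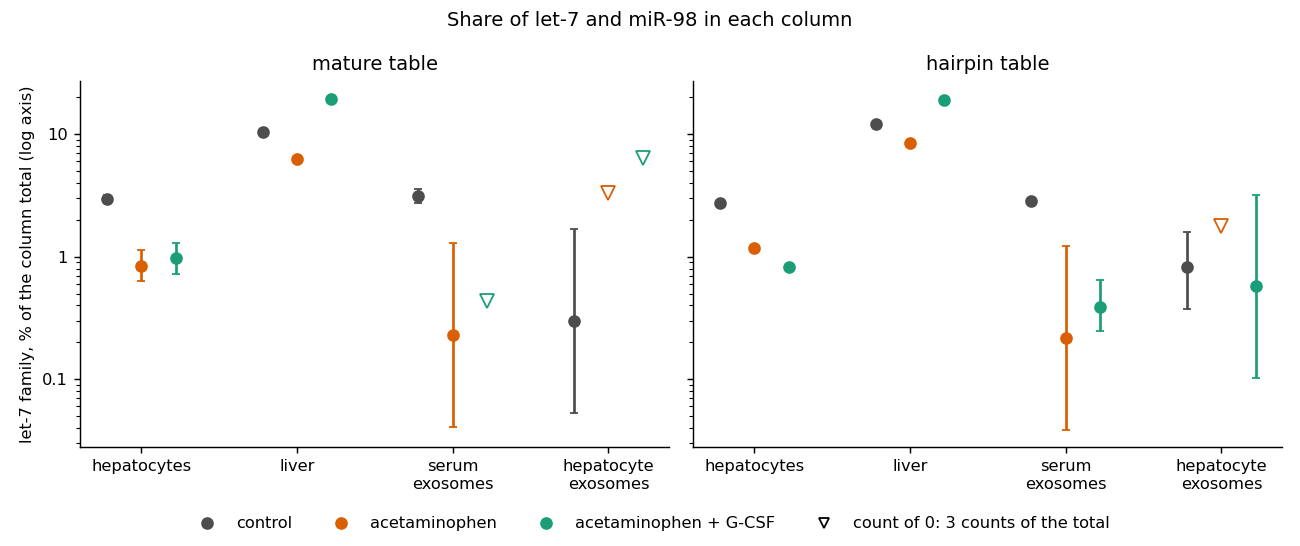
Share of the let-7 family in each of the 12 columns of the mature and hairpin tables, in percent of the column total on a log axis, with 95% Wilson intervals; open triangles mark columns with a family count of 0 at the share that 3 counts would make. The 3 liver columns (6.292 to 19.5% in the mature table) lie above every hepatocyte column, and the treated exosome columns are limited by depth.

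In control serum exosomes the family held 202.7 counts, 3.111% of the column (2.721 to 3.566%), a share near that in control hepatocytes. That likeness depends on the leading miRNA of the serum column, miR-30c-5p at 3680 counts. With the leading miRNA left out of each total, the shares were 7.148% in serum exosomes and 3.745% in hepatocytes. The acetaminophen serum column held 1 count, of let-7i, which is 0.2294% of that column (0.0405 to 1.288%). The serum column with acetaminophen plus G-CSF held 0 of 692 counts, which by the Wilson interval allows a share of up to 0.5521%. Hepatocyte exosomes held 1 count in control, of let-7e (0.2985% of 335 counts, 0.05271 to 1.671%), and 0 in both treated columns. By the Wilson intervals those columns allow up to 4.05% with acetaminophen and 7.556% with G-CSF added. The family could not be measured in hepatocyte exosomes at this depth.

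Within control liver the members formed steps. let-7a (2.366%, 1167.1 counts) and let-7c (2.337%) led and did not differ beyond counting error. let-7f (1.171%), let-7d (1.157%), let-7e (1.053%) and let-7b (1.016%) followed, with overlapping intervals between neighbours. let-7g (0.5444%) and let-7i (0.516%) came next and also overlapped, and miR-98 was lowest at 0.1668% (0.134 to 0.2063%). let-7a ranked 6 among all mature miRNAs in this column, and 2 in liver with acetaminophen plus G-CSF, where it reached 4.087%.

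In control hepatocytes the order began alike, with let-7a at 0.6433% and let-7c at 0.6265%, followed by let-7f at 0.3921% and let-7d at 0.3366%. let-7g, let-7i and let-7e lay between 0.2069 and 0.246% with overlapping intervals. let-7b was lowest there at 0.1104% (29.53 counts, 0.0786 to 0.1601%), below miR-98 at 0.1737% (0.129 to 0.2294%), although those intervals overlap. In control serum exosomes let-7b (0.3791%, 24.7 counts) stood next after let-7a and let-7c (both 0.7014%), and its interval, 0.2601 to 0.5659%, overlapped that of let-7f.

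**Figure D2:**
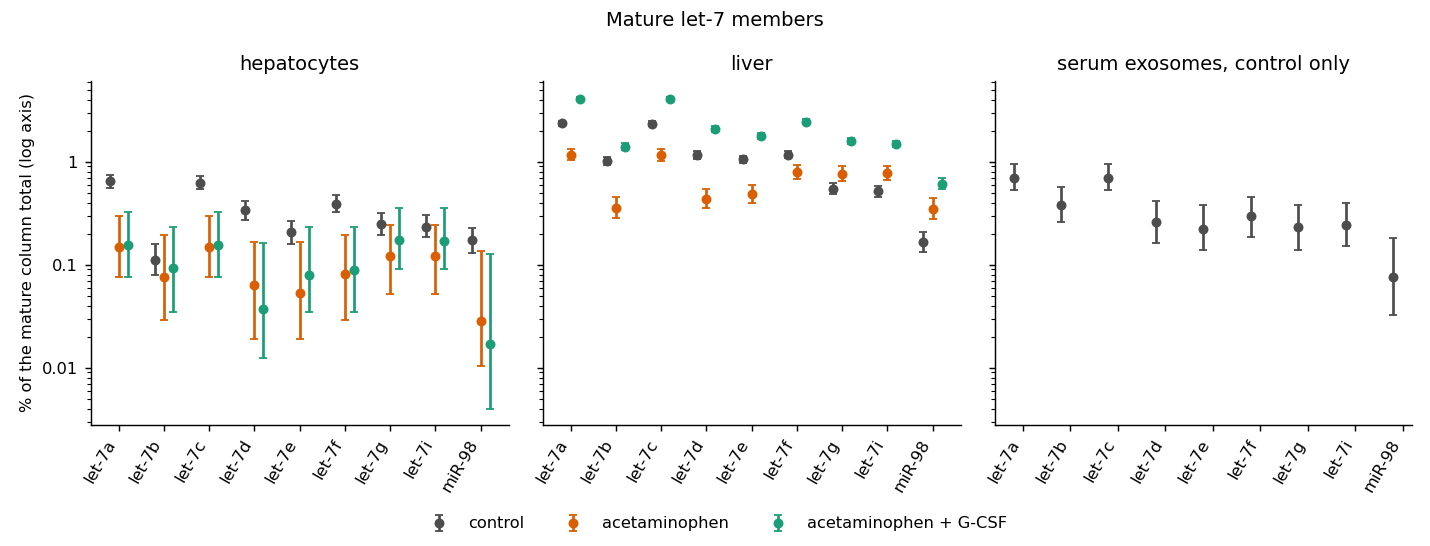
Share of each mature member in percent of the column total on a log axis, with 95% Wilson intervals, in the 3 columns of hepatocytes, the 3 of liver and control serum exosomes. In hepatocytes every member is lower in both treated columns than in control, whereas in liver the column with acetaminophen plus G-CSF is the highest for all 9 members.

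The excess of liver over hepatocytes differed among members. In the control columns the ratio of shares was 3.48 for the family (95% interval 3.23 to 3.75), 9.2 for let-7b (6.26 to 13.6), 5.09 for let-7e (3.87 to 6.88) and 0.96 for miR-98 (0.665 to 1.42). The hairpins gave 12.1 for let-7b (10.9 to 13.4), 7.29 for let-7c-1 (7 to 7.59), 3.54 for let-7e (3.1 to 4.06), 1.47 for let-7f-1 (1.39 to 1.56) and 1.51 for mir-98 (1.09 to 2.15). let-7b had the widest gap between the control columns in both tables. With acetaminophen its ratio was the lowest of the mature members, at 4.67 (1.77 to 17.9, overlapping the others). Among hairpins it was not the lowest: let-7b had 3.87 (3.14 to 4.77), let-7d 2.6 (2.18 to 3.13) and let-7k 1.84 (0.744 to 5.39). The highest hairpin with a value was let-7a-2, at 9.1 (7.97 to 10.5). The family ratio was 7.45 with acetaminophen (5.53 to 10.3) and 20.2 with acetaminophen plus G-CSF (15 to 27.9). Whole liver also contains cells other than hepatocytes. The summed share of 5 mesenchymal and stellate cell markers was 1.81 to 2.34% in the liver columns and 0.00686 to 0.166% in hepatocytes, with miR-143-3p and miR-214-3p at 0 counts in control hepatocytes. Their part in the gap was not tested.

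edgeR's quasi-likelihood F-test, with the 3 treatments standing in for replicates of each material, gave all 9 members a higher level in liver, by 1.63 to 2.58 on the log2 scale. None passed an adjusted p of 0.05, against 9.15% of the 153 miRNAs tested, while 6 members had an unadjusted p under 0.05, as had 27.5% of all. Of the 14 hairpins 0 passed, against 13.2% of 370, and 6 had an unadjusted p under 0.05, as had 25.9% of all. The lowest adjusted p was 0.0663, for let-7b (log2 difference 2.5, SE 0.96), let-7d and let-7e (edgeR). DESeq2 called 6 members, all higher in liver, and 20.9% of all miRNAs. With the control columns left out, edgeR called 7 members and 31.8% of all. The median log2 difference of the members was 2.48, and that of all miRNAs tested was 0.63.

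Cultured hepatocytes exposed to acetaminophen had a smaller family fraction than untreated ones. The family sum fell from 794 of 26741 counts to 45 of 5330, which is 3.51-fold lower after TMM scaling (95% interval 2.59 to 4.84). In the hairpin table it fell from 22862.3 to 2108.6 counts, 2.84-fold lower (2.71 to 2.97). A member was called different between 2 columns when 1 column held at least 10 counts, the scaled ratio was at least 2-fold and its interval excluded equality. By that rule 6 of the 9 members were lower and 0 higher, where 30% of the 100 miRNAs measured were lower and 24% higher. The members' median log2 fold was -2.06, and that of all miRNAs measured was -0.53.

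let-7a had 172 counts in control hepatocytes, 7.967 with acetaminophen and 6.867 where G-CSF was added. let-7c had 167.5, 7.967 and 6.867. With acetaminophen alone, let-7a was 4.29-fold lower than in control (2.12 to 10.1). let-7d had 90.02, 3.4 and 1.667 counts, and let-7f had 104.8, 4.3 and 3.95. let-7d was 5.26-fold lower with acetaminophen (1.97 to 29.4) and let-7f 4.84-fold lower (1.98 to 19.5). let-7e (55.32, 2.8 and 3.533 counts) and miR-98 (46.45, 1.5 and 0.75 counts) were also called lower with acetaminophen, from 1 to 4 counts in the treated columns.

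The other 3 members did not pass the rule, but their intervals overlapped those of the members called. let-7g had 65.78, 6.5 and 7.75 counts, and its ratio of acetaminophen to control was 0.497 (0.162 to 1.05). let-7i, which shares its reads, gave 0.523 (0.17 to 1.1). let-7b had 29.53, 4.067 and 4.117 counts and a ratio of 0.693 (0.172 to 1.9). The deeper hairpin table gave narrower intervals. The let-7g hairpin went from 1555.7 to 164.9 counts, 2.47-fold lower (2.1 to 2.91), and was called, as was let-7i (2.49-fold, 2.12 to 2.95). The let-7b hairpin went from 382.4 to 130.7 counts, which after scaling was 1.31 times its control level (1.07 to 1.6). With TMM factors computed without the filter on low counts, that ratio was 0.669.

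Of the 13 hairpins measured in hepatocytes with acetaminophen, 10 were called lower and 0 higher, against 31.8% and 30.1% of all hairpins measured. The 3 that were not called were let-7b, let-7d (1.8-fold lower, 1.56 to 2.11) and let-7k, which had 9.267 counts. let-7a-1 was 4.01-fold lower (3.6 to 4.47), let-7f-1 4.25-fold lower (3.49 to 5.24), and let-7c-1 2.21-fold lower (1.96 to 2.5). let-7e had the largest drop of the 10, 6.13-fold on 11.07 counts (3.39 to 12.5). The hairpins therefore fell by unequal amounts, and let-7b lay on the other side of equality from all hairpins called, except under those unfiltered factors.

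With G-CSF added to acetaminophen in culture, the family remained below control. The sum of 43 counts was 2.85-fold lower than control in the mature table (2.1 to 3.97) and 3.71-fold lower in the hairpin table (3.5 to 3.94). Of the 9 members, 5 were called lower and 0 higher, against 30% and 23% of miRNAs measured, and of the 13 hairpins 10 were lower and 0 higher, against 32.4% and 27.2%. The hairpin let-7b was not distinguishable from control here, at 0.961 times its level (0.728 to 1.24), and at 0.492 times with the unfiltered factors. Between the columns with and without G-CSF the mature sum did not differ beyond counting error, at a ratio of 1.23 (0.79 to 1.91). In the hairpin table that ratio was on the other side of equality, at 0.764 (0.71 to 0.821), and 0 of 11 hairpins were called, against 7.83% higher and 14.3% lower among all. No mature member reached 10 counts in either column, where 10.6% of 47 miRNAs were called higher and 17% lower.

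The treated hepatocyte columns also differed from control in depth, 5330 and 4450 against 26741 counts, and in other lists. Biliary and epithelial markers, nearly all of them miR-31-5p, went from 1.22% in control to 0.15% and 0.0449%, and miR-31-5p itself from 325 to 8 and 2 counts. Endothelial markers were 0.333%, 1.76% and 1.24%, and hepatocyte markers 20.7%, 32.2% and 16.8%. Hepatocyte markers did not all move alike, with miR-122-5p at 3767, 920 and 443.3 counts and miR-192-5p at 652, 323 and 149. Erythroid and myeloid markers were at 0 or 1 count in each hepatocyte column. The part of these shifts in the let-7 result was not tested.

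In liver the acetaminophen column had a moderately lower family level, and the change was not shared by all members. The family sum was 1.47-fold lower than control in the mature table (1.38 to 1.56) and 1.63-fold lower in the hairpin table (1.6 to 1.67). By the rule above 2 members were lower, let-7b (2.55-fold, 1.99 to 3.33) and let-7d (2.38-fold, 1.89 to 3.01), and 1 was higher, miR-98 (2.34-fold, 1.69 to 3.29). Among the 160 miRNAs measured, 27.5% were lower and 23.1% higher. The members' median log2 fold was -0.84, and that of all miRNAs measured was -0.25.

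Members lay on both sides of control in each table. let-7b had 501.2 counts in control liver, 70.22 with acetaminophen and 611.1 with G-CSF added, out of column totals of 49330, 19695 and 43698.7. let-7g had 268.6, 150.7 and 691.1 counts. After scaling, let-7g was 1.57 times its control level with acetaminophen (1.28 to 1.93) and let-7i 1.67 times (1.36 to 2.05), while let-7a, let-7b, let-7c, let-7d and let-7e were all below it. let-7f was 1.31-fold lower in the mature table (1.1 to 1.58), but its hairpins were higher, let-7f-1 by 1.41-fold (1.28 to 1.54) and let-7f-2 by 1.42-fold (1.29 to 1.56). The let-7g hairpin was higher by 1.45-fold (1.35 to 1.57) and mir-98 by 1.78-fold on 21.03 counts (1.06 to 2.83). None of the 6 hairpins above control reached the 2-fold rule. They were both let-7f hairpins, let-7g, let-7i, mir-98 and let-7j, the last at 1.17 times control on 1.85 counts (0.142 to 5.43). Of the 14 hairpins, 6 were called lower and 0 higher, against 19.4% and 16.9% of all hairpins. Those 6 were let-7a-2, let-7b, both let-7c hairpins, let-7d and let-7e, lower by 2.05-fold to 2.49-fold.

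The liver column with acetaminophen plus G-CSF had the highest family level of the series. Against acetaminophen alone the family sum was 2.51-fold higher (2.36 to 2.66), and 2.4-fold higher in the hairpin table (2.35 to 2.45). Of the 9 members, 6 were called higher and 0 lower, where 17.3% of the 162 miRNAs measured were higher and 13% lower. Those 6 were let-7a to let-7f, from 2.47-fold for let-7f (2.1 to 2.95) to 3.84-fold for let-7d (3.06 to 4.82). The other 3, let-7g, let-7i and miR-98, had ratios of 1.67, 1.56 and 1.42, each with an interval above equality. Among the hairpins, 8 of 14 were called higher and 0 lower, against 18.5% and 13.2% of all hairpins.

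Against control, the family sum in liver with acetaminophen plus G-CSF was 1.71-fold higher (1.65 to 1.77), and 1.47-fold higher in the hairpin table (1.46 to 1.48). The 3 members called higher were let-7g (2.63-fold, 2.28 to 3.03), let-7i (2.61-fold, 2.25 to 3.02) and miR-98 (3.32-fold, 2.6 to 4.33), and 0 were lower, against 15.8% higher and 12.9% lower among 171 miRNAs. miR-98 had 82.28 counts in control liver, 68.7 with acetaminophen and 267.7 with G-CSF added. The 5 hairpins called higher were let-7f-1 (2.93-fold, 2.82 to 3.04), let-7f-2 (2.97-fold), let-7g (2.81-fold, 2.72 to 2.9), let-7i (2.83-fold) and mir-98 (2.09-fold, 1.67 to 2.63), against 18.6% of hairpins higher and 21.8% lower. let-7b was 1.25-fold higher in the mature table (1.11 to 1.41) and 1.18-fold lower in the hairpin table (1.14 to 1.22). let-7f, 1.89-fold higher in the mature table (1.7 to 2.09), was just short of the rule there and past it in its hairpins.

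**Figure D3:**
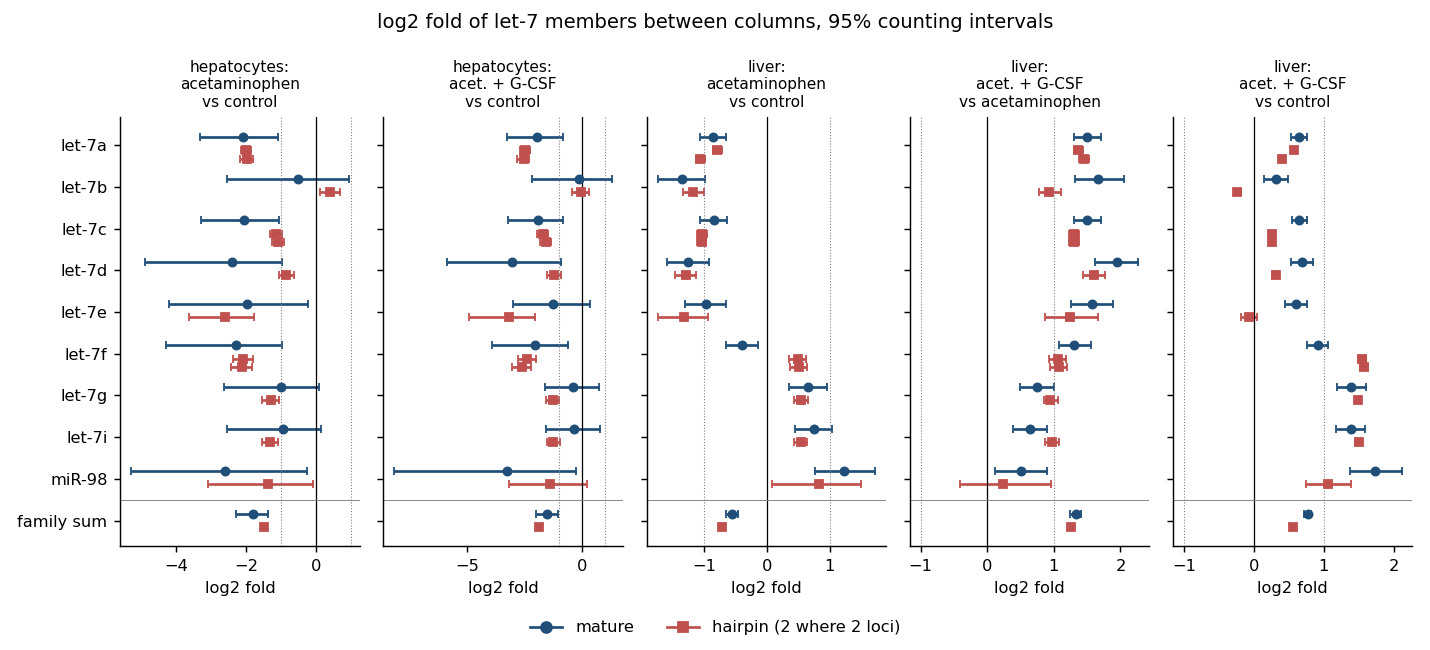
log2 fold of each member between 2 columns, with 95% counting intervals, for mature rows (circles) and hairpins (squares, 2 where a member has 2 loci); dotted lines mark 2-fold and the bottom row is the family sum. In hepatocytes let-7b lies nearest to or above equality, and in liver with acetaminophen let-7g, let-7i and miR-98 lie to the right of equality while let-7a to let-7e lie to the left.

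The composition of the family in liver changed accordingly. The set used next holds the members whose hairpins stood above control with acetaminophen, so its rise restates those folds. let-7f, let-7g, let-7i and miR-98 together made up 23.22% of the family's mature counts in control liver (95% Wilson interval 22.08 to 24.4%), 42.65% with acetaminophen (39.97 to 45.47%) and 31.41% with G-CSF added (30.43 to 32.4%). Among hairpins the corresponding shares were 11.86%, 27.85% and 23.19%. In control hepatocytes they were 35.21% (32.02 to 38.65%) in the mature and 28.34% in the hairpin table, and control liver had the lowest share of the 5 mature and 7 hairpin columns with at least 100 family counts. let-7a and let-7c together moved the other way in liver, from 45.54% to 37.13% and 41.77% of mature counts.

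Several cell type markers moved across the liver columns as well. The 5 erythroid markers summed to 0.209% in the control column, 6.53% in the acetaminophen column and 1.13% where G-CSF was added, carried by miR-451a at 87, 1163 and 458 counts. The 3 myeloid markers were 0.0932%, 0.551% and 0.354%. Hepatocyte markers were 28.4%, 42.9% and 15.8%, endothelial markers 2.89%, 2.49% and 2.03%, mesenchymal and stellate markers 2.29%, 1.81% and 2.34%, and biliary and epithelial markers 1.73%, 0.377% and 1.66%. Members of the same list did not always move alike. miR-122-5p carried the hepatocyte list, at 11657.2, 7901.8 and 5543 counts, while miR-194-5p had 1219.5, 209.5 and 466.2. miR-126a-3p had 1366, 403 and 843.5 counts, and miR-126a-5p 61, 87 and 43. miR-145a-5p had 895.8, 140 and 717.3 counts, and miR-143-3p 83, 162 and 188. The biliary and epithelial sum was nearly all miR-31-5p, at 832, 56 and 706 counts. Acetaminophen liver, with the largest erythroid and miR-122-5p shares, was thus also the liver column with the lowest family share and the largest fraction of let-7f, let-7g, let-7i and miR-98. The part of these markers in the let-7 result was not tested.

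**Figure D4:**
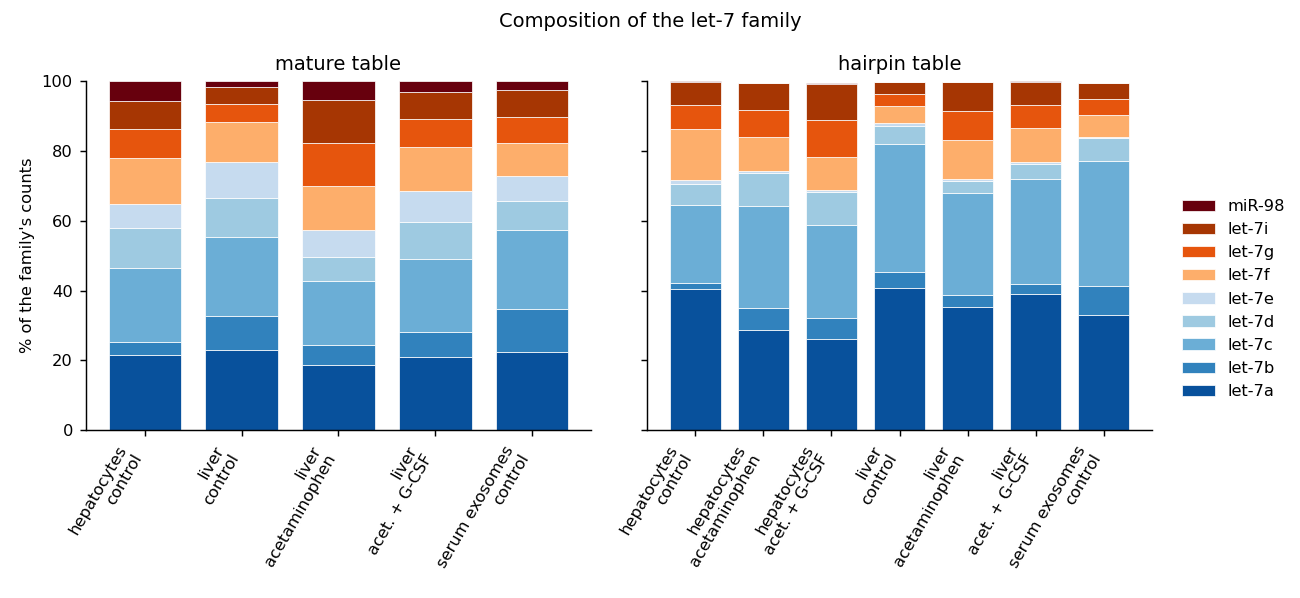
Composition of the let-7 family as percent of its counts in the mature and hairpin tables, in columns with at least 100 family counts; loci of the same mature miRNA are added in the hairpin panel, which leaves out let-7j and let-7k (together at most 0.523%). The orange to dark red members (let-7f, let-7g, let-7i and miR-98) take 23.22% of mature counts in control liver and 42.65% in acetaminophen liver. Their hairpins stood above control in acetaminophen liver, so this rise restates those folds.

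Neighbouring hairpins of one host did not keep a fixed ratio. In the chromosome 13 group, let-7a-1 held 8.79 times the counts of let-7f-1 in control liver (8.5 to 9.09), 3.61 times with acetaminophen (3.28 to 3.99) and 4.48 times with G-CSF added (4.39 to 4.58). In hepatocytes the same ratio was 3.2 in control (3.03 to 3.38), 3.39 with acetaminophen and 2.97 with G-CSF added, with overlapping intervals. The ratio of let-7a-1 to let-7d moved in opposite directions in the 2 materials, from 3.91 to 1.76 in hepatocytes with acetaminophen and from 4.23 to 5.99 in liver. On chromosome 15, let-7b over let-7c-2 was 0.151 in control hepatocytes (0.135 to 0.168) and 0.42 with acetaminophen (0.341 to 0.518), but 0.248 and 0.226 in liver. These hairpins share reads with loci elsewhere (let-7a-1 with let-7a-2, let-7f-1 with let-7f-2), so a ratio is not that of a single transcript.

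**Figure D5:**
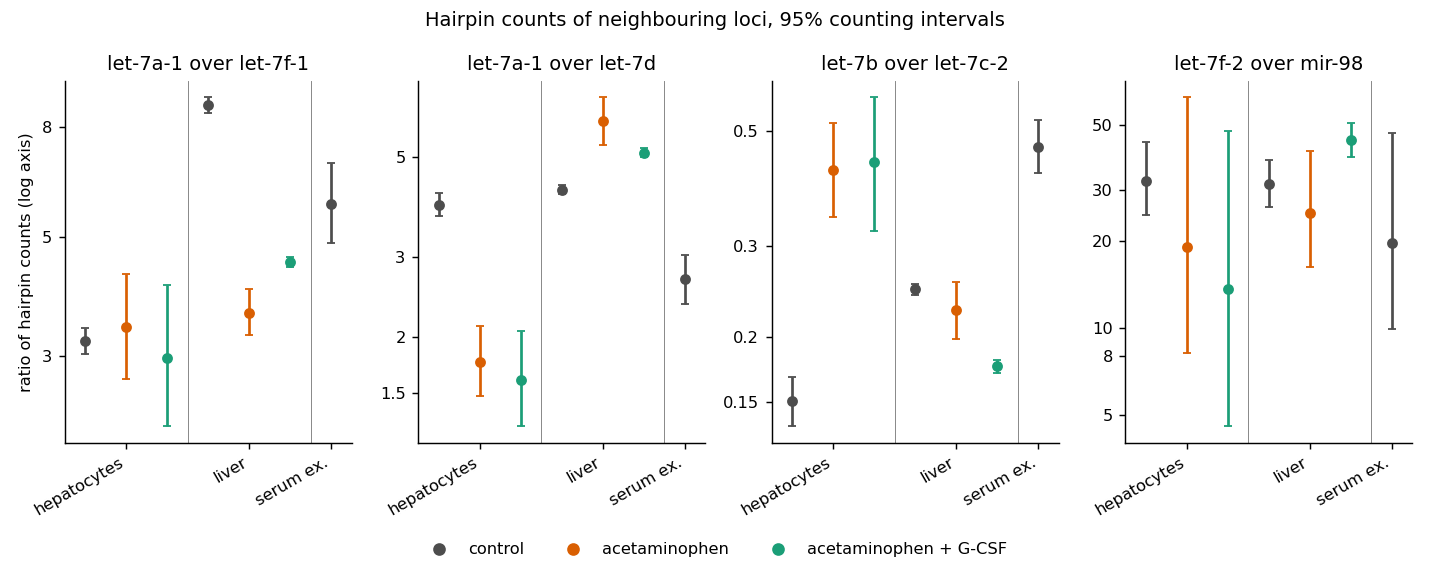
Ratio of hairpin counts for 4 pairs of neighbouring loci on a log axis, with 95% counting intervals, in 3 columns of hepatocytes, 3 of liver and control serum exosomes. let-7a-1 over let-7f-1 is 8.79 in control liver and between 2.97 and 5.76 in the other 6 columns, and let-7b over let-7c-2 is lowest, at 0.151, in control hepatocytes.

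Over hepatocytes and liver together, acetaminophen with or without G-CSF was compared with control by edgeR's quasi-likelihood F-test on 6 columns. None of the 9 members passed an adjusted p of 0.05, where 0.654% of 153 miRNAs did, and 0 members had an unadjusted p under 0.05, where 8.5% did (DESeq2 also called 0). Of the 14 hairpins 0 passed, where 5.41% of all did. Members' log2 differences ran from -1.3 for let-7d (SE 0.84, adjusted p 0.547) to 0.23 for let-7i (SE 0.76, adjusted p 0.925). The difference between liver and hepatocytes in this response was positive for 8 of 9 members, with a median of 1.77 on the log2 scale. None passed the adjusted threshold, where 7.84% of 153 miRNAs did, and 1 member had an unadjusted p under 0.05, where 19% did (0 calls by DESeq2). That member was miR-98, with a difference of 3.68 (SE 1.44, edgeR adjusted p 0.108). In the hairpin table the closest were let-7f-2 (3.87, SE 1.36, edgeR adjusted p 0.0675) and let-7f-1 (3.74, SE 1.36, edgeR adjusted p 0.0797), against 4.86% of 370 hairpins called. The one member with a negative estimate in both tables was let-7b, at -0.19 (SE 1.25) in the mature and -0.43 (SE 1.32) in the hairpin table.

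In serum exosomes the family sum fell from 202.7 counts in control to 1 and 0 in the treated columns. Relative to column totals, the acetaminophen column stood at 0.0737 of control, with a counting interval from 0.00185 to 0.415. The column with acetaminophen plus G-CSF was 7.18-fold lower when its family count of 0 was set at a floor of 3. By its counting interval it was at least 5.79-fold lower. None of the 8 members with enough control counts could be called on its own, where 27.5% of 40 miRNAs were higher and 20% lower with acetaminophen and 34.1% and 18.2% of 44 with G-CSF added. Depth fixed this outcome, since members at 0 counts, set at the floor, had ratios of 0.618 to 3.08 and could not pass as lower. let-7i, at 1 count with acetaminophen, had a ratio of 0.954. The hairpin table, with 5151.3, 1 and 15.6 counts, gave 7.34-fold lower for the column with G-CSF (4.4 to 12.5), and 6 of 12 hairpins were called lower there, against 13.6% of 242. The 1 hairpin called higher, where 30.6% were, was let-7k with 5.5 of 4026.07 counts against 22.93 of 181243.2 in control, and its mature row was at 0. In the acetaminophen column 0 of 12 hairpins were called, against 6.57% higher and 5.05% lower. At that depth a hairpin at 0 counts, set at the floor, stood at 1.27 times control or more and could not pass as lower. Exchanging the treated serum columns, as their titles would have it, only swaps their values, so it could not change that both sums are lower. Erythroid markers, 9.74% of control serum exosomes, were at 0 counts in both treated serum columns, as were the hepatocyte markers apart from 1 count, and their part in the result was not tested.

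The passenger (3p) arms of the family had few counts. Of 12 such arms in the table, 10 had a count somewhere, and together they were 1.274% of 3p and 5p counts in control hepatocytes, 0.8794% in control liver, 0.7528% in acetaminophen liver and 0.1991% with G-CSF added. In the shallow treated hepatocyte columns they were 13.46% with acetaminophen and 6.522% with G-CSF added, on 7 and 3 counts. The arms with most counts in total were let-7d-3p (54), let-7b-3p (20) and let-7f-1-3p (6). let-7d-3p had 32 counts in control liver, 3 with acetaminophen and 9 with G-CSF added. The 3p arms are shown because one pair is identical, and their seeds, in capitals, differ from that of the 5p arms.

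let-7d-3p: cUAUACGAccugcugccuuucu

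let-7b-3p: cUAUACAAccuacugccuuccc

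let-7a-1-3p: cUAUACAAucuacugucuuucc

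let-7c-2-3p: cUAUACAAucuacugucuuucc

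let-7a-1-3p and let-7c-2-3p have the same sequence and the same counts, 1 in control hepatocytes, 0.7 in acetaminophen liver and 0.5 with G-CSF added.

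Some let-7 loci are transcribed with members of the miR-99/100 and miR-125 families, and 5 such partners were followed. In hepatocytes with acetaminophen 4 of the 5 were called lower, as were 30% of all miRNAs measured. miR-125b-5p went from 97 to 2 counts there, 9.63-fold lower (2.6 to 80.7), and miR-125a-5p, which was not called, from 27 to 1. With G-CSF added, miR-125b-5p and miR-99b-5p were called lower, where 30% of all miRNAs measured were lower and 23% higher. miR-125b-5p was 3-fold below control. miR-99b-5p, at 0 counts, was 2.99-fold below at the floor of 3 counts, and at least 2.35-fold below by its interval. In liver with acetaminophen only miR-99b-5p, encoded beside let-7e, was called, as lower, where 27.5% of all miRNAs measured were lower and 23.1% higher. miR-99b-5p had 153 counts in control, 9 after the drug and 48 after the drug and G-CSF, 6.07-fold lower with acetaminophen (3.11 to 13.5). In liver with acetaminophen plus G-CSF, miR-100-5p (2.2-fold, 1.66 to 3.01) and miR-99a-5p (2.13-fold, 1.58 to 2.86) were above control and miR-99b-5p was 3.12-fold below it (2.24 to 4.41). Of all miRNAs measured there, 15.8% were called higher and 12.9% lower. Mature let-7e was 1.52-fold above control there, but its hairpin stood at 0.953 of control (0.883 to 1.03). miR-99a-5p and miR-100-5p had counts within 5% of each other in liver and in the other hepatocyte columns, and 4 against 3 counts in hepatocytes with acetaminophen plus G-CSF, so they are not independent measurements.

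The comparison set was 83 other miRNAs that reached 20 counts in 3 or more of the 6 hepatocyte and liver columns. Those most like the family sum were ranked by Pearson correlation of log2 scaled values. miR-125a-5p came first (r = 0.959 over 6 columns), followed by miR-5121 (0.956), miR-26b-5p (0.933), miR-23b-3p (0.928) and miR-26a-5p (0.927). miR-125a-5p had only 1 and 2 counts in the treated hepatocyte columns. miR-26b-5p and miR-26a-5p had similar, partly fractional counts, such as 236.1 and 234.1 in acetaminophen liver. They may therefore not be independent measurements. As a share of the column, all 5 were lower in both treated hepatocyte columns than in control, and higher in each liver column than in the treated hepatocyte columns. The 6 columns share their libraries and depths with the family, so these values are a description.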

How the data were processed

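Values are estimated counts per mature miRNA and per hairpin, which the authors made from both instruments' reads and deposited unscaled, per the file headers, with 1 column per condition. Per the labels, a Norgen kit gave total RNA, and the Ion Total RNA-Seq Kit v2 the libraries. For the aligner, genome build and rule for dividing reads: not given in the sources used here. The division of reads is read from the fractional values. Divided reads make values of near-identical members dependent. Columns were matched by name, and groups follow the treatment label.

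Members and lists were chosen with earlier results of these data known. All 9 members and 14 hairpins were named, with the 3 leading 3p arms, 5 cluster partners and the 5 most similar miRNAs.

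Scaling used TMM factors (edgeR 4.0.16, R 4.3.3) on miRNAs with at least 10 counts in 1 column of the material, and column totals in exosomes. Ratios carry exact conditional (Clopper-Pearson) 95% intervals on rounded counts, shares Wilson intervals, and a count of 0 a floor of 3. Fits over 6 columns took counts rounded to whole numbers, miRNAs with 10 or more in at least 2 columns and edgeR's quasi-likelihood F-test, with Benjamini-Hochberg adjustment over all miRNAs tested. Liver against hepatocytes was adjusted for treatment, and acetaminophen against control for material, with conditions standing in for replicates. The p-values measure the spread left between conditions after that adjustment. For the difference between materials in the response, that spread is the difference between treated columns with and without G-CSF. The fits were also run on simulated independent counts with large changes. Those lack divided reads and conditions standing in for replicates, so they do not show how well the fits work here. Hosts are from GENCODE M21. Alternatives were DESeq2 1.42.0, other scalings, no filter, the hairpin table, all 12 columns and each treatment left out.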

Additional observations from a re-analysis of the deposited data

Results flagged for a closer look

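The results below went in opposite directions in hepatocytes and in liver under the same contrast, with both counting intervals excluding equality. The differences between single columns were not tested as such. The fit over 6 columns, which tested both treated columns together against control, called 0 of 9 members for a difference between materials. All values are log2 folds from 1 column against 1 column.

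For acetaminophen against control, miR-98-5p was at -2.62 in hepatocytes, on 1.5 counts in the treated column, and 1.23 in liver. Its mature values are among the least certain, and its hairpin was at -1.37 and at 0.83, the latter not called. For acetaminophen plus G-CSF against control, the family sum was at -1.51 in hepatocytes and 0.77 in liver. In the same comparison let-7a-5p was at -1.95 and 0.65, and let-7c-5p at -1.91 and 0.65, a pair that is not independent. let-7d-5p was at -3.06 and 0.69, and let-7f-5p at -2.04 and 0.92. miR-98-5p was at -3.26 in hepatocytes, on 0.75 counts in the treated column, and 1.73 in liver. The dose was given to mice in one case and to cultures in the other, so the contrasts differ in more than the material.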

How the results depend on the processing

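No paired analysis was possible because each column combines both instruments and carries no replicate number. Of 38 recomputed family folds, 36 kept their direction and their side of the 2-fold rule. The 38 include the exchange of the treated serum columns, which only swaps their folds and could not turn them. The hairpin table turned acetaminophen plus G-CSF against acetaminophen in hepatocytes to -0.39 on the log2 scale, from an uncalled 0.3, and DESeq2 size factors left acetaminophen plus G-CSF against control in hepatocytes at -0.93, short of 2-fold. Counts of called members in hepatocytes moved from 6 to 10 with acetaminophen and from 5 to 10 with G-CSF added (both against control) in the hairpin table, which holds more loci. With members of equal counts taken once, these counts were 5 and 4. In liver with acetaminophen plus G-CSF against acetaminophen they went from 6 to 5 in that way. In liver with acetaminophen they moved from 3 to 6 with column totals (1 higher, 5 lower), to 5 without the filter before TMM (0 higher, 5 lower) and to 6 with hairpins, and against control with G-CSF added from 3 to 5 with hairpins. In serum exosomes they moved from 0 to 8 of 8 lower in both comparisons with TMM factors, which rest on 2 miRNAs shared by the 3 columns, and to 7 with hairpins and G-CSF added. Exchanging the treated serum columns gave log2 family folds of -2.84 and -3.76 against control.

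Liver against hepatocytes moved from 0 members called to 6 with DESeq2, which called 20.9% of all miRNAs, and between 0 and 7 when 1 treatment was left out. The 7 calls arose without the control columns, where 31.8% of all were called, and the other omissions gave 0. Leaving out a treatment gave 0 to 0 calls for acetaminophen against control. Relative to the TMM factors, DESeq2 size factors shifted all mature log2 folds against control in hepatocytes by 0.44 with acetaminophen and 0.59 with G-CSF added, unfiltered TMM by -0.52 and -0.45, and unfiltered TMM shifted hairpins by -0.97 in both. In liver with acetaminophen the mature shifts were 0.17 and -0.24. With DESeq2 factors let-7b, let-7g and let-7i in hepatocytes with acetaminophen plus G-CSF stood at 1.35, 1.14 and 1.16 times control, against uncalled values below it. The causes were not tested.

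Family shares in the hairpin table lay outside the mature interval for control hepatocytes (2.73%), acetaminophen hepatocytes (1.17%) and liver (12.1%, 8.54% and 19.1% in order of treatment). With the leading miRNA left out of the total the share was 3.74% in control hepatocytes, 1.43% in hepatocytes with acetaminophen plus G-CSF, 13.5%, 10.5% and 22.3% in liver and 7.15% in control serum exosomes. Depth limits the treated hepatocyte columns (45 and 43 family counts) and leaves 0 or 1 mature family count in each exosome column other than control serum.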
